A study of Mus musculus with 6 samples.

Results

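The mitochondrial ribosomal protein genes are described here, taken as the protein-coding genes whose symbol begins with Mrps (small subunit) or Mrpl (large subunit) and a number. There were 77 of them, 29 for the small and 48 for the large subunit, among 22913 genes listed and 16349 protein-coding ones. The mitochondrial ribosome translates the few proteins encoded in mitochondrial DNA, all of them parts of the respiratory chain and ATP synthase. Its subunits are built from mitochondrial ribosomal RNA and from proteins that are encoded in the nucleus and imported. Heart muscle cells depend on respiration, and mutations in some of these genes are known to cause cardiomyopathy.

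Polyadenylated RNA was sequenced from HL-1 cells, a mouse line grown from an atrial heart muscle tumour. In the first group the cells carried a control plasmid and in the second a plasmid that overexpressed HSPA1A, labelled as human, the stress-inducible chaperone of the HSP70 family. All cells were transfected with a lipid reagent and harvested after 48 h, and each group held 3 libraries of between 23849656 and 26897086 counts. The labels do not say whether replicates came from separate cultures, so a p-value reflects only how far libraries differ, and that spread may be technical. HSPA1A replicate 2 stood apart from the other HSPA1A libraries and near the controls. On the first principal component of all tested genes (34.3% of the variance) it lay at -15.1, against 15.9 and 18.3 for HSPA1A replicates 1 and 3 and -8.27 to -4.33 for the controls, so results are also given without it. By a chi-square per degree of freedom over gene counts it differed from the controls by 8.21 to 11, where controls differed among themselves by 2.68 to 9.06 and HSPA1A replicates 1 and 3 differed from the controls by 15.1 to 23.9. Of 14 heart muscle markers listed, 9 averaged at least 1 CPM (counts scaled to library size), among them Tnnt2, Gata4 and Des, while Actc1, Tnni3, Ryr2 and Myh7 averaged below 0.1 CPM. In bulk RNA, fewer cells of a type and less RNA per cell cannot be told apart.

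No mitochondrial ribosomal protein gene passed the test in either direction (0.179% of all genes did). With TMM scaling 71 of the 77 had a small positive log2 fold change (median 0.071), where 51% of all genes were positive. On the deposited FPKM values 45 of the 77 were positive, where 31.1% of all genes were. TMM is a factor per library that assumes that most genes do not differ, and FPKM are fragments scaled to gene length and library size. The TMM medians were 0.048 for the small and 0.104 for the large subunit, against -0.011 and 0.040 on FPKM. All tested genes had medians of 0.003 with TMM and -0.041 on FPKM. The difference between subunits was not tested. Against the control mean the members' TMM median was 0.142 in HSPA1A replicate 1, -0.039 in replicate 2 and 0.143 in replicate 3.

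To show what lies in front of these genes, the 250 bases upstream of the RefSeq start are printed for 4 members with a RefSeq promoter entry: Mrpl22 and Mrps18a, which had the smallest p-values among positive fold changes, and Mrps27 and Mrps36, which had the smallest among negative ones with an entry. The sequences are from RefSeq on GRCm38.p6, read 5′ to 3′ on the strand of the gene. Capitals mark the core of the binding site of ETS factors such as GABP, CCGGAAG, on either strand. Exact matches to the cores of NRF1 and YY1 were searched too, and none lay in the bases shown. Sites that differ from a core by a letter were not counted. Past the shown bases, a YY1 core lay at positions 12 to 19 after the start in Mrps18a and 15 to 22 in Mrps27. GABP and NRF1 are the transcription factors classically tied to nuclear genes of mitochondrial proteins.
Mrpl22, chr11:58171414-58171663, plus strand: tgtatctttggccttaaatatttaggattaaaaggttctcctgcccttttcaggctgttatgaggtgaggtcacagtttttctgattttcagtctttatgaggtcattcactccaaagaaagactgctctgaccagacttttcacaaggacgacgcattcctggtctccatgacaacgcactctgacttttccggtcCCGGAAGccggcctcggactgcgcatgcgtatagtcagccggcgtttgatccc
Mrps18a, chr17:46110754-46111003, plus strand: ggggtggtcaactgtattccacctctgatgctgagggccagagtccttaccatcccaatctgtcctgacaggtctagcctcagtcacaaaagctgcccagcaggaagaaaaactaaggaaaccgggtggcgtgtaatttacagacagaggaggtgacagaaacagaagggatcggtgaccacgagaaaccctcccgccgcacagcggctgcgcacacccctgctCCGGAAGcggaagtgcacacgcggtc
Mrps27, chr13:99344536-99344785, plus strand: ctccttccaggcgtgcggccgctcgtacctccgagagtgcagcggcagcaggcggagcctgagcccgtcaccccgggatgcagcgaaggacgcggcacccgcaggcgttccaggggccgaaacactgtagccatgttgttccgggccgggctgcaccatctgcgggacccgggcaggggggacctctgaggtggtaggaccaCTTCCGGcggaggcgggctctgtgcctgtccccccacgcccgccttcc
Mrps36, chr13:100744660-100744909, minus strand: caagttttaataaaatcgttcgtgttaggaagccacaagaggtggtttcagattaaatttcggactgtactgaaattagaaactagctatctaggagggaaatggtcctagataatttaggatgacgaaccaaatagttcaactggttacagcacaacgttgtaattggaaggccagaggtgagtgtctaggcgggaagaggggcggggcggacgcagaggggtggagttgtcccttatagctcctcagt
The ETS core stood at -53 to -47 from the start in Mrpl22, at -26 to -20 in Mrps18a and at -48 to -42 in Mrps27. It was not among these letters in Mrps36. Whether the core goes with a direction of change was not tested.

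Over the 300 bases from 250 before to 50 after the start, 68 of the 77 members had a RefSeq entry, and both strands were searched. The ETS core occurred in 25 of the 68 (36.8%), against 20.7% of the 8924 tested protein-coding genes with an entry and 9.93% of all 27025 genes in the table. A YY1 core, AAGATGGC, whose first letters are the last of the ETS core so that matches can overlap, occurred in 12 (17.6%, against 5.47% and 3.19%). The NRF1 core, the letters GCGC on both sides of a 2-base gap, was found in 14 (20.6%, against 15.6% and 7.0%). The SP1 core GGGCGG occurred in 34 of the 68, against 69.8% of the tested genes and 38.2% of all genes in the table. Such matches are runs of letters, not measured binding. Members with the ETS core had a median log2 fold change of 0.108 and those without it 0.065, while for YY1 the medians were 0.032 with and 0.092 without. All members were measured in the same 6 libraries, so these medians only describe them.

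The genes were spread over 17 chromosomes, and many sat close to another gene. In 18 of 77 (23.4%) a protein-coding gene on the other strand started within 1000 bases upstream of the GENCODE M21 start and pointed away. This was so for 10.7% of the tested protein-coding genes. Pairs that overlap at their starts were not counted. All 18 partners were tested. Their median log2 fold change was 0.027, with 11 positive, beside 0.066 for the 18 members themselves. Mrpl32 (0.16) and its partner Psma2, a proteasome subunit gene (0.12), had similar values 75 bases apart, as had Mrpl30 (0.15) and Mitd1 (0.14), 66 bases apart. Mrps18c (0.25) lay 29 bases from Helq, a DNA helicase gene, at 0.03, and Mrps34 (0.09) lay 29 bases from Eme2 at -0.22. None of these 8 genes passed the test. A gene on the other strand overlapped 35 members, among them Mrpl13 (Mtbp), Mrps18a (Rsph9), Mrpl47 (Actl6a and Ndufb5) and the pair Mrpl46 and Mrps11, which overlap each other. The library kit was stranded. How strand was treated when reads were counted is not stated in the labels, so reads of these genes may be mixed with those of the partner.

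Levels were compared per length, in the deposited FPKM. Every member was expressed, with at least 366 reads in each library. The median of the mean FPKM was 35.0, and the lower and upper quartiles were 18.7 and 60.5. The extremes were 4.48 and 236, a 52.7-fold range in FPKM that depends on the length used for each gene. The proteins are for the most part built into the ribosome once each. The highest were Mrpl33, a small homologue of a bacterial large subunit protein, at 236 FPKM, the mitochondria-specific Mrpl42 at 140.3, Mrpl13 at 139.9 and the mitochondria-specific Mrpl52 at 123. Mrpl33 stood at 220, 231 and 245 FPKM in control replicates 1 to 3 and at 240, 216 and 264 in HSPA1A replicates 1 to 3, so the groups overlapped. Mrpl42 and Mrpl13 overlapped, at 130 to 141 and 125 to 136 FPKM in the controls. The lowest were Mrps25 at 4.48, with single libraries between 4.20 and 4.93, Mrpl48 at 7.33, Mrpl19 at 8.16 and Mrps17 at 9.57 FPKM. The length behind the FPKM was between 0.0701 and 1.14 times the exon length in GENCODE M21, so an order of levels depends on the gene model. Mrpl33 and Mrps25 had exon lengths of 7326 and 6576 bases there, and averaged 117.3 and 29.04 CPM (TMM) in the controls. Their distance in FPKM thus rests largely on the lengths used. By control mean CPM (TMM), Mrpl13 at 170.0 and Mrpl24 at 138.4 lay above Mrpl33, and Mrpl34 at 15.01 lay below Mrps25. Counts at Mrpl48 could also share reads with the pseudogene Mrpl48-ps, which had 116 to 155 counts per library against 819 to 959 for the gene.

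**Figure D1:**
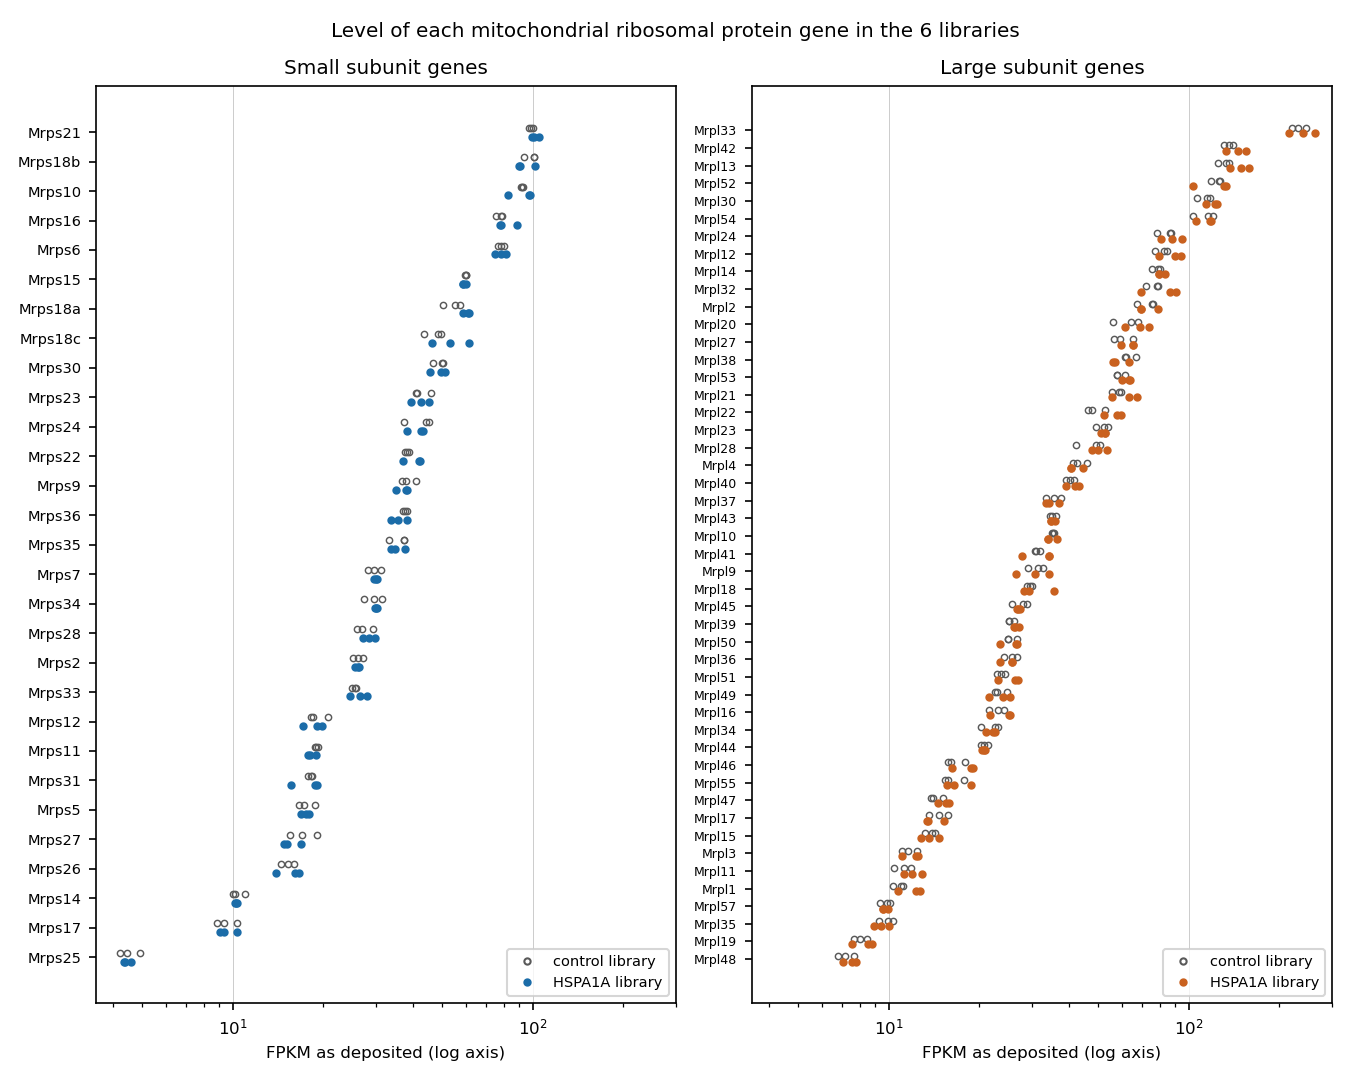
Deposited FPKM (log axis) of the 29 small and 48 large subunit genes, 1 point per library, open for control and filled for HSPA1A. The members run from Mrps25 at 4.48 to Mrpl33 at 236 FPKM on average, and the 2 groups overlap for most genes.

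By origin, the 18 small subunit proteins with a bacterial homologue had a median of 39.7 FPKM and the 11 mitochondria-specific ones 29.7. In the large subunit the medians were 38.7 for 30 homologues and 29.4 for 18 mitochondria-specific members. Genes of the translation factors (median 9.31 FPKM), of ribosome assembly factors (8.19) and of mitochondrial tRNA synthetases (4.28) stood lower than the ribosomal proteins, each with its own spread.

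The comparison of HSPA1A with control libraries asked which genes the chaperone plasmid changed. CPM values below are scaled by TMM. In edgeR's quasi-likelihood test, adjusted after Benjamini and Hochberg over 12827 genes, 0 of 77 members were called, where 0.179% of all genes were, 0.0234% higher and 0.156% lower. DESeq2 (0.203% of all genes called higher) and limma-voom also called 0 members. With no filter on low counts 2 members, Mrpl13 and Mrpl22, were called higher, against 0.41% of 22913 genes. In that fit standard errors followed the spread of each gene's own libraries less. They were 0.069 for Mrps18c and 0.067 for Mrpl39, against 0.104 and 0.052 with the filter, so its calls need caution. At an unadjusted p under 0.05 there were 10 members higher (4.33% of all genes) and 0 lower (4.26% of all genes). Of the 77 log2 fold changes 71 were positive, against 51% of all tested genes, and they ran from -0.086 to 0.267. The standard errors lay between 0.048 and 0.104, and no 95% interval reached above 0.478 or below -0.253. On library totals alone 0 members were called (0.0078% of all genes higher) and 58 were positive, where all tested genes shifted to a median of -0.033 and 38.7% positive, and on the FPKM scale 45 members were positive, beside 31.1% of all genes. Measured from the median of all genes, the members' median was 0.068 with TMM, 0.067 on totals and 0.053 on FPKM.

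**Figure D2:**
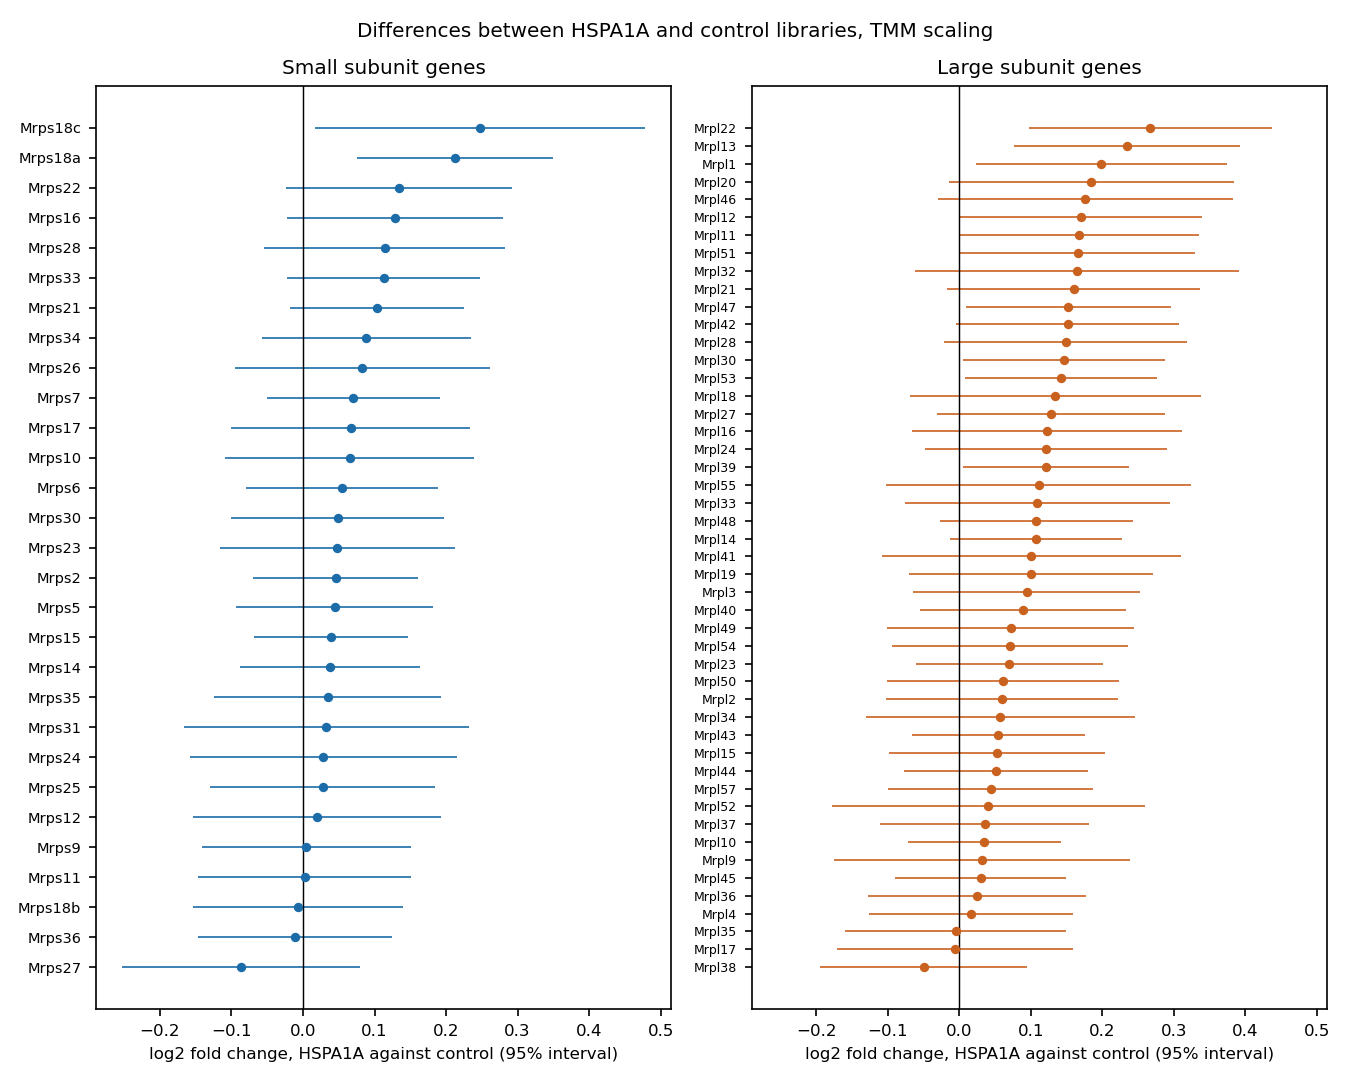
Log2 fold change of each member, HSPA1A against control, with its 95% interval from edgeR's quasi-likelihood fit under TMM scaling. Of the 77 points 71 lie above 0, and all run from -0.086 for Mrps27 to 0.267 for Mrpl22. None passed the adjusted test. On the FPKM scale 45 lie above 0, where 31.1% of all genes do.

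In the large subunit 45 of 48 values were positive under TMM, 8 with an unadjusted p under 0.05. Mrpl22 (ENSMUSG00000020514.6, chromosome 11, 58171661 to 58179565), whose bacterial homologue lines the exit tunnel, stood at 35.5, 39.7 and 36.4 CPM in control replicates 1 to 3 and at 46.3, 40.1 and 48.1 CPM in HSPA1A replicates 1 to 3. All HSPA1A libraries lay above all controls, replicate 2 by little. The log2 fold change was 0.27 ± 0.08 (SE, n = 3 each; adjusted p = 0.411 by edgeR's quasi-likelihood test). Mrpl13 (chromosome 15, 55534094 to 55557748), a homologue of a core bacterial protein, stood at 164, 171 and 175 CPM in the controls and 204, 179 and 217.5 CPM with HSPA1A, again without overlap (log2 fold change 0.23 ± 0.07). Mrpl1, part of the mobile stalk through which used tRNA leaves, measured 47.4, 49.5 and 50.5 CPM in control against 60.9, 49.0 and 59.4 CPM, where HSPA1A replicate 2 lay among the controls. The same pattern held for Mrpl47, which sits at the tunnel exit, at 49.8, 49.5 and 54.0 against 59.6, 52.5 and 58.4 CPM, and for Mrpl53, at 39.4, 41.1 and 38.8 against 45.2, 41.0 and 45.7 CPM. Mrpl39, which resembles a tRNA synthetase, did not overlap, at 61.8, 62.7 and 60.9 against 69.8, 64.4 and 67.4 CPM (log2 fold change 0.12 ± 0.05). The 3 negative values were Mrpl38 of the central protuberance at -0.05, from 94.3 ± 4.02 CPM in the controls and 91.1 ± 7.25 CPM with HSPA1A (SD, n = 3 each), Mrpl17 at -0.006 and Mrpl35 at -0.004. For these 3 genes the libraries of both groups overlapped. By place in the subunit, medians were 0.142 for 5 genes of the factor-binding stalk, 0.096 for 6 of the exit tunnel and 0.110 for 8 of the central protuberance, with 0 called in each. Among the stalk genes Mrpl12, which recruits translation factors, stood at 113 ± 4.42 CPM in the controls and 128 ± 14.1 CPM with HSPA1A.

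Small subunit genes showed 26 of 29 positive values under TMM and 12 of 29 on the FPKM scale, where 51% and 31.1% of all genes were positive. Above the median of all genes lay 25 of 29 under TMM and 24 of 29 on FPKM. Only 2 had an unadjusted p under 0.05 in the TMM fit, and both belong to the Mrps18 family of 3 paralogues of 1 bacterial protein. Mrps18a (ENSMUSG00000023967.7, chromosome 17, 46110986 to 46128910), named for the small subunit although structures place its protein in the large one, stood at 55.9, 62.2 and 60.4 CPM in the controls and 71.1, 64.8 and 70.9 CPM with HSPA1A. The groups did not overlap, and the log2 fold change was 0.21 ± 0.06 (SE, n = 3 each; adjusted p = 0.411, edgeR's quasi-likelihood test). Mrps18c measured 43.5, 47.6 and 49.0 CPM in the controls and 55.5, 46.4 and 64.8 CPM with HSPA1A, with a coefficient of variation of 16.6% in the latter against 8.60% for Mrps18b and 5.19% for Mrps18a (log2 fold change 0.25 ± 0.10). Mrps18b, the most abundant of them at 96.3 FPKM, did not shift in either direction beyond its spread, at 108, 114 and 115 against 123, 104 and 109 CPM. Mrps27, a small subunit protein with RNA-binding helical repeats, had the lowest value of all members, at 30.8, 37.1 and 33.2 CPM in the controls and 31.3, 33.2 and 30.6 CPM with HSPA1A, with overlap (log2 fold change -0.09, 95% interval -0.25 to 0.08). Mrps36, since assigned to the alpha-ketoglutarate dehydrogenase complex, stood at 27.9 ± 0.64 and 27.7 ± 1.17 CPM (SD, n = 3 each). By origin the medians were 0.050 for 18 bacterial homologues and 0.048 for 11 mitochondria-specific genes of the small subunit, and 0.116 for 30 and 0.072 for 18 of the large one.

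**Figure D3:**
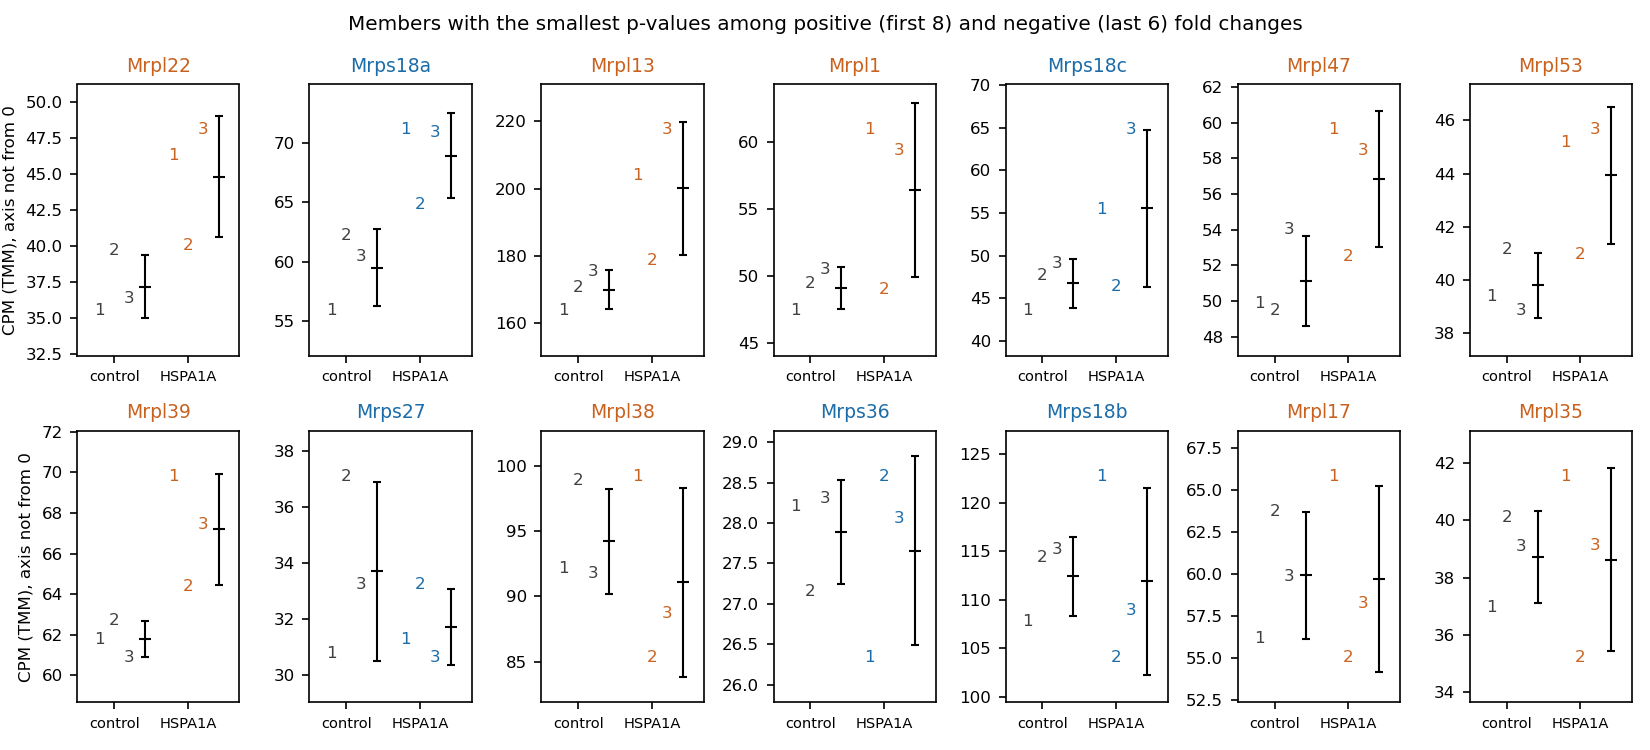
CPM (TMM) of the 14 members named by p-value, with the digit giving the replicate and the bar the mean ± SD of 3 libraries; axes do not start at 0. In the first 8 panels HSPA1A replicate 2 lies below replicates 1 and 3, and in the last 6 the groups overlap.

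Each HSPA1A library was set against the 3 controls. Replicate 1 lay above all controls for 67 of 77 members (33.3% of all genes) and below all controls for 1 (32.4%). Replicate 3 lay above for 58 (33.6%) and below for 2 (33.5%). In replicate 2 the counts were turned, with 11 above (31.4%) and 29 below (30.2%). It was the lowest HSPA1A library for 70 of 77 members, against 38.3% of all genes. The controls varied too, and their medians against the other 2 controls were -0.077, 0.052 and 0.020 for replicates 1, 2 and 3. On the FPKM scale the small subunit's medians were 0.014 in HSPA1A replicate 1 and 0.020 in replicate 3, where all genes had medians of -0.054 and -0.058.

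**Figure D4:**
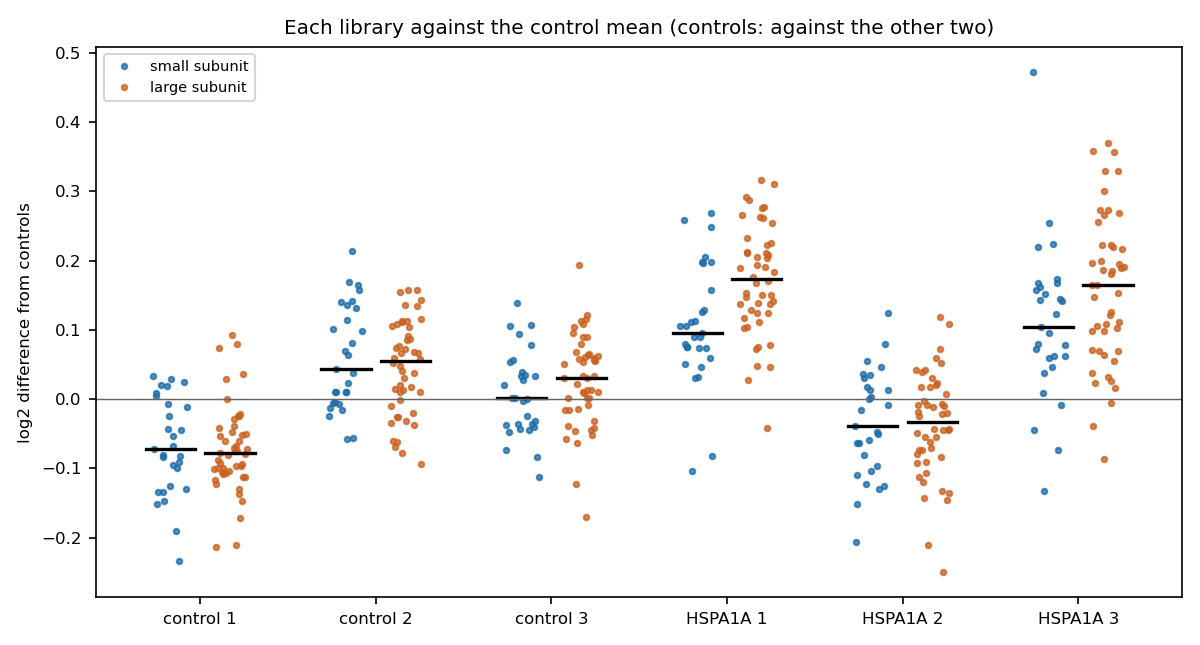
Log2 difference of each member in each library from the control mean (for control libraries, from the mean of the other 2), TMM scaling; black bars are medians per subunit. Large subunit genes in HSPA1A replicates 1 and 3 have medians of 0.174 and 0.165, and replicate 2 has -0.033; the small subunit has 0.096, 0.104 and -0.039.

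Other values per library are given beside this pattern, and not all of them followed it. The share of counts at Yam1, annotated as a long noncoding transcript, was 2.70% and 2.53% in HSPA1A replicates 1 and 3 and 1.58% in replicate 2. In control replicates 1 to 3 it was 1.86%, 1.18% and 1.23%. Control replicate 1 thus had the highest Yam1 share of the controls but the lowest median of the members. Whether reads of other sequence were counted at Yam1 was not tested, so its values are counts at the locus and may not be expression of the gene. With the log2 level of Yam1 in the fit the members' median was 0.018, with 52 positive (49.9% of all genes), 0 called (0.0156% higher) and 0 at an unadjusted p under 0.05. Because Yam1 was highest in HSPA1A replicates 1 and 3, that fit cannot tell Yam1 and the plasmid apart. It was also less precise, with a standard error of 0.112 for Mrpl22 against 0.077 without Yam1. The part of Yam1 in the result was not tested. The members' share of all counts was 0.427%, 0.456% and 0.450% in the controls and 0.481%, 0.430% and 0.475% in HSPA1A replicates 1 to 3. The 14 heart muscle markers summed to between 1338 and 1385 CPM of library totals in the controls and between 1157 and 1309 with HSPA1A. Most of these sums came from Des (550 to 664 CPM over all libraries) and Atp2a2 (416 to 527), while Tnnt2 and Gata4 were highest in HSPA1A replicate 2. The 7 fibroblast markers, Lum near 0, summed to between 404 and 419 against 368 to 399.8. The 6 endothelial markers, Pecam1 and Emcn near 0, reached at most 1.19 CPM and the 5 macrophage markers, Ptprc, Csf1r and Lyz2 near 0, at most 7.62 CPM in any library. The part of these cell type markers in the result was not tested. The members' coefficient of variation had a median of 4.27% over control and 8.25% over HSPA1A libraries and was larger in HSPA1A for 62 of 77 members. Over all tested genes the medians were 5.06% and 8.21%. With smooth terms for gene length and GC content the members' median was 0.071, with 67 positive and 0 called (0.0156% of all genes higher).

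Groups without overlap were counted next. All 3 HSPA1A libraries lay above all controls for 9 of 77 members, where 7.3% of all genes did so, and for 0 members they lay below, against 7.17%. The 9 were Mrpl10, Mrpl13, Mrpl14, Mrpl22, Mrpl39, Mrps15, Mrps18a, Mrps21 and Mrps33. For some the steps were small, as in Mrpl10, a stalk protein gene, at 62.6 to 64.5 CPM in the controls and 64.8 to 66.0 CPM with HSPA1A. Omitting control replicate 2 gave 18 members (11.1% of all genes), omitting control replicate 3 gave 15 (10.8%), omitting HSPA1A replicate 2 gave 55 (21% of all genes), and the FPKM scale gave 3 (2.92%).

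Leaving out HSPA1A replicate 2 changed the calls. Of the 77 members 26 were then called higher by edgeR's quasi-likelihood test, 21 of the large and 5 of the small subunit, and 0 lower, where 5.27% of 12955 genes were called higher. The largest of these log2 fold changes was 0.37 for Mrps18c (adjusted p = 0.00354), and the smallest p-values were those of Mrpl13 at 0.31 (adjusted p = 0.00101) and Mrpl22 at 0.35 (adjusted p = 0.00235), all from edgeR's quasi-likelihood test. The median was 0.144, with 74 positive. Without HSPA1A replicate 1 it was 0.043 and without replicate 3 it was 0.048, with 0 called in both (0.00765% and 0.00767% of all genes higher). For the small subunit it was 0.031, 0.113 and 0.029 without HSPA1A replicates 1, 2 and 3 and 0.073 without control replicate 2, and for the large subunit it was 0.069, 0.171 and 0.052 without HSPA1A replicates 1, 2 and 3. With 2 libraries left in 1 group, the spread is taken largely from the other genes and libraries. HSPA1A replicate 2 was singled out from these same data and was the lowest HSPA1A library for 70 of 77 members. Leaving it out widens the difference for such members by choice, so the calls and p-values without it are no separate evidence. The count of 10 members at an unadjusted p under 0.05 went to 46 without HSPA1A replicate 2, where 12.7% of all genes passed. It was 4 and 3 without HSPA1A replicates 1 and 3 (3.43% and 3.13% of all genes), and 3 and 6 without control replicates 1 and 3 (2.36% and 2.76%).

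**Figure D5:**
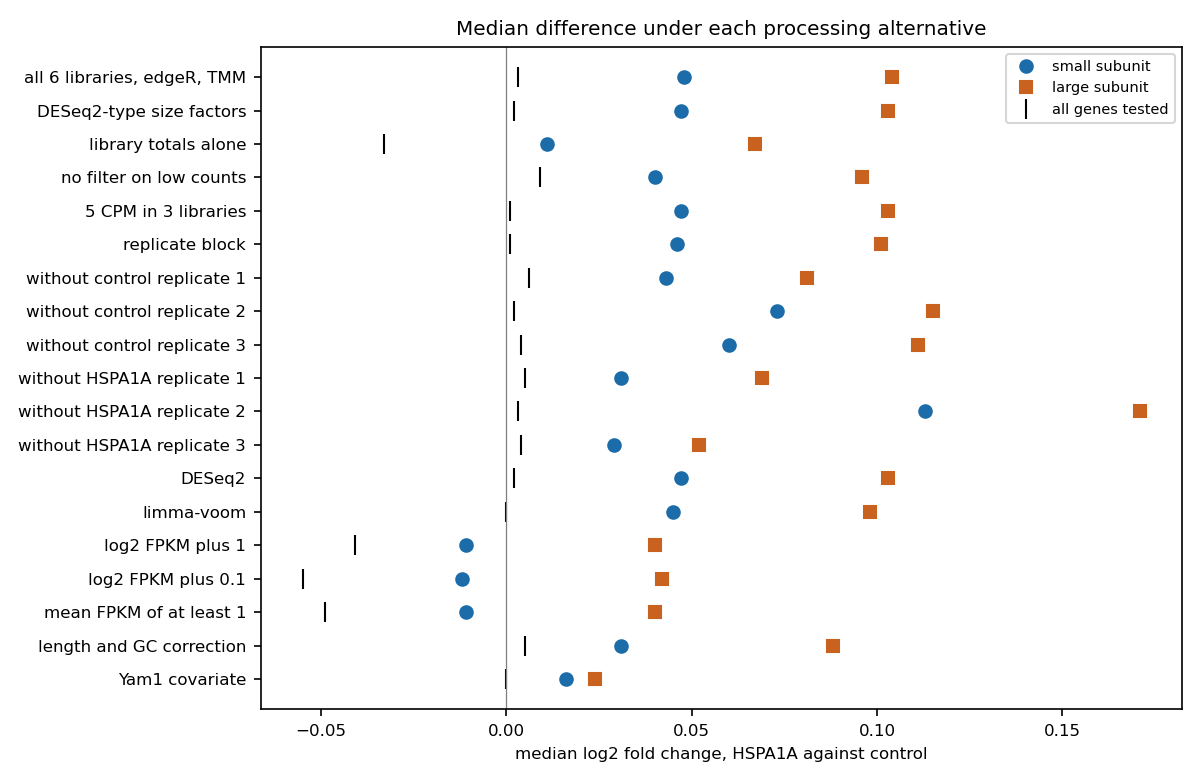
Median log2 fold change of small (circles) and large (squares) subunit genes and of all genes tested (bars) under each processing alternative. The large subunit's median runs from 0.024 with the Yam1 covariate to 0.171 without HSPA1A replicate 2, and the small subunit's is below 0 on the 3 FPKM settings. On those 3 settings the median of all genes is lower still, at -0.041, -0.055 and -0.049.

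The mitochondrial ribosome has further proteins whose genes bear other names, and 6 of these were tested. None was called, 1 had an unadjusted p under 0.05, and the median was 0.066. Ptcd3, which binds near the entry of the mRNA, stood at 71.0, 71.9 and 72.4 CPM in the controls and 83.0, 73.5 and 87.4 CPM with HSPA1A, without overlap (log2 fold change 0.18 ± 0.07). Chchd1, a small protein of the small subunit, was lowest in HSPA1A replicate 2, at 44.3, 47.0 and 46.6 against 57.0, 43.5 and 61.1 CPM. Aurkaip1, Dap3 and Ict1, which encodes a release factor built into the large subunit, had log2 fold changes of 0.10, 0.03 and 0.02, and Gadd45gip1 had -0.11.

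Genes that build and serve the mitochondrial ribosome had values in both directions. Among 27 assembly factors the median was -0.001, with 13 positive, 0 called and 0 at an unadjusted p under 0.05, and Mrm1, an rRNA methyltransferase gene, had the smallest p at -0.17 ± 0.09 (SE). Of 17 translation factor genes 0 were called, with 12 positive and a median of 0.026. Slirp, whose product protects mitochondrial mRNAs, had values of 58.1, 64.6 and 68.0 CPM in the controls and 80.3, 63.7 and 86.2 CPM with HSPA1A (log2 fold change 0.27 ± 0.10), and Letm1, an ion exchanger gene of the inner membrane, had -0.12 ± 0.05. The 20 tRNA synthetase genes had a median of -0.018 with 0 called. Lars2, for leucine, stood out by level, at 1042 FPKM, and measured 3989, 2808 and 2865 CPM in the controls and 7220, 3764 and 5760 CPM with HSPA1A, the same order of libraries within each group as the Yam1 share. Its log2 fold change of 0.79 ± 0.20 did not pass in the fit with the count filter and no block (adjusted p = 0.342, edgeR's quasi-likelihood test). It passed with the replicate number as a block (adjusted p = 0.0236), with no filter, and without HSPA1A replicate 2 (adjusted p = 0.000141), all by edgeR's quasi-likelihood test. The fit with no filter gave it a standard error of 0.054, against 0.204 with the filter, so that pass understates the spread of its libraries. With the Yam1 level in the fit it was 0.12 ± 0.11. Whether reads of repeated sequence similar to ribosomal RNA were counted at Lars2 was not tested, so its values are counts at the locus and may not be expression of the gene. Genes of mitochondrial DNA transcription and RNA processing had a median of 0.054 over 23, with 0 called. Ssbp1, the single-strand DNA-binding protein gene, had 0.18 and Polg2, a polymerase subunit gene at 3.80 CPM in the controls, 0.34. Fastk had -0.16. Each had an unadjusted p under 0.05 by edgeR's quasi-likelihood test, as had 4.33% of all genes in the higher and 4.26% in the lower direction. Of 10 regulators of mitochondrial biogenesis 0 were called, and Esrra and Pprc1 had -0.20 and -0.13 with all HSPA1A libraries below all controls.

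The RNAs that these proteins bind and translate were measured as well. The 13 mitochondrially encoded mRNAs had a median log2 fold change of -0.042, with 4 positive and 0 called. Their medians in the single HSPA1A libraries were -0.122, -0.018 and 0.060, an order unlike that of the ribosomal proteins. The ribosomal RNA mt-Rnr2 of the large subunit stood at 1403, 760 and 878 CPM in the controls and 1513, 1035 and 1497 CPM with HSPA1A, and mt-Rnr1 of the small subunit at 979, 508 and 601 against 1046, 701 and 1025 CPM. Both overlapped between groups, with log2 fold changes of 0.41 ± 0.21 and 0.41 ± 0.22 (SE). Neither passed in the fit with all libraries and the count filter. Both were among the genes called with no filter and without HSPA1A replicate 2 (0.41% and 5.27% of all genes called higher). The limits of these fits are given above. Control replicate 1, the control library with the most mt-Rnr1 and mt-Rnr2, had the lowest median over the ribosomal protein genes among the controls.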

How the data were processed

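The authors deposited whole read counts per gene for 22913 genes and FPKM for 22833 of them, 1 column per library, and 0 sample columns were left unused. Tools listed per the submitters' processing notes are TopHat2, bcl2fastq and edgeR, with GRCm38 as the build. Which program counted reads, whether it used strand, and the gene annotation are not stated there. Gene positions, exon lengths and neighbours came from GENCODE M21 (GRCm38), where all 77 members were found, and promoters from RefSeq.

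Counts were filtered with filterByExpr (minimum count 10, total 15), leaving 12827 genes, all 77 members among them, scaled by TMM and tested with edgeR 4.0.16 under R 4.3.3 (glmQLFit, glmQLFTest), without covariates, at a threshold of 0.05 after Benjamini-Hochberg adjustment over all genes. Per-library log2 CPM used a prior count of 2. The biological coefficient of variation was 0.0688. Tested on simulated data for HSPA1A against control (12827 genes), the fit called 26.7% of genes changed 1.2-fold, 76% at 1.5-fold and 0.0554% of unchanged ones. These simulations held no library that stood apart.

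The members, lists and tests were chosen with earlier results of these data known. Members were named as the 8 with the smallest p in each direction (6 were negative), the 4 highest and 4 lowest by FPKM and the Mrps18 paralogues. Of the other lists, the 2 genes with the smallest p and the subunits under other symbols were eligible, and further names were chosen after their values were seen. The alternatives were other scalings, DESeq2 1.42.0, limma-voom (limma 3.58.1), other filters, the replicate block, each library left out, FPKM with a pseudocount of 1 or 0.1, length and GC terms (mgcv 1.9.3) and Yam1 as a covariate. Lists of heart muscle, fibroblast, endothelial and macrophage markers were summed per library.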

Additional observations from a re-analysis of the deposited data

How the results depend on the processing

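No member was called lower under any of the 18 alternatives, and 0 were called higher except for 2 (Mrpl13 and Mrpl22) with no filter on low counts and 0 to 26 when single libraries were left out, the 26 without HSPA1A replicate 2. The number of positive log2 fold changes was 45 with FPKM at a pseudocount of 1, at 0.1 and at a mean FPKM of at least 1. Of all genes 31.1%, 30.9% and 28.7% were positive there. The number was 59 to 74 with a library left out. The members with no overlap and higher values numbered 3 on FPKM and 9 to 55 with a library left out, and those lower 0 to 1, the 1 being without HSPA1A replicate 1. The other mitochondrial lists, from ribosomal proteins under other names to mitochondrially encoded RNAs and regulators of biogenesis, held 118 tested genes. Of these, 0 were called in the fit with all libraries, the count filter and no block. With no filter 5 of 119 were called, all higher (0.41% of all genes higher), and the replicate block called 1 (Lars2). The fit with no filter has the limit on standard errors given above. With a library left out 0 to 12 were called. The 12 were 10 higher and 2 lower, without HSPA1A replicate 2, where 5.27% of all genes were called higher. The shares of all genes called lower there, and called with the replicate block, were not counted. The replicate numbers share only a number: same-numbered libraries correlated at -0.1, -0.00152 and 0.0847 over deviations from group means, and the replicate block called 0 members (median 0.07). Among the 21 named members, log2 fold changes changed sign with the Yam1 covariate for Mrps27 (0.059), Mrps36 (0.017), Mrpl33 (-0.006), Mrpl52 (-0.155) and Mrpl19 (-0.009), with length and GC terms for Mrpl38 (0.017), on library totals for Mrps25 (-0.009), and on FPKM plus 1, plus 0.1 and at a mean of at least 1 for Mrpl52 (-0.028 in each) and Mrps25 (-0.024, -0.028 and -0.024). Leaving out libraries gave -0.034 to 0.023 for Mrps36, -0.078 to 0.045 for Mrps18b, -0.081 to 0.052 for Mrpl17, -0.059 to 0.061 for Mrpl35, -0.035 to 0.171 for Mrpl52, -0.014 to 0.086 for Mrps25 and -0.001 to 0.132 for Mrps17. The cause of these changes was not tested. Every member had at least 366 reads per library, and no alternative depth was run.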

Other observations

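The cytosolic ribosomal protein genes, which encode the separate ribosome outside mitochondria, had 77 of 79 positive log2 fold changes with a median of 0.127 and 0 called by edgeR's quasi-likelihood test, 33 at an unadjusted p under 0.05. Their medians in HSPA1A replicates 1, 2 and 3 against the control mean were 0.154, 0.032 and 0.200 with all scaled by TMM, so replicate 2 was on the positive side for these genes and at -0.039 for the mitochondrial ones. The 2 sets share all 6 libraries, and their difference was not tested.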
